A study of Homo sapiens with 12 samples.

Results

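Retinoid metabolism and retinoic acid receptors are described here through 9 genes of the 20738 in the deposited table: DHRS9, RDH10, DHRS3, ALDH1A3, CRABP2, CYP26B1, RARA, RARG and RXRA. They were taken by symbol for their place in retinol oxidation, retinoid binding and the receptors, and DHRS9 and CRABP2 were selected because their measured values stood out in these same libraries, so the values of both are given as a description without a test. Total RNA of UM-SCC-47 and UPCI-SCC-090, squamous carcinoma lines of the head and neck that carry human papillomavirus, was sequenced after 72 h with 500 nM JQ1, which blocks the acetyl-lysine pockets of the BET proteins, or with 0.1% DMSO as the control. There were 3 libraries in each of the 4 groups, 12 in all. Each line stands for itself as a model, because there was 1 line of each kind, 1 dose and 1 time. The labels do not say whether replicates were separate cultures, so p-values measure only the spread between samples, which may be technical.

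Vitamin A acts on epithelia mainly through retinoic acid. Retinol is oxidised reversibly to retinal by short-chain dehydrogenases, retinal is oxidised irreversibly to retinoic acid by aldehyde dehydrogenases of the ALDH1A group, the acid is carried in the cell by CRABP proteins, and CYP26 enzymes break it down. Retinoic acid binds the RAR receptors, which sit on DNA as pairs with RXR receptors. In stratified squamous epithelium the pathway is known for its hold over keratinocyte differentiation.

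The DNA just before the annotated starts of DHRS9, CRABP2, ALDH1A3 and CYP26B1 is shown because, among the 9 genes, these 4 differed most between lines or treatments. Each line holds the 250 bases before a RefSeq start on the gene's own strand in GRCh38.p14, with capitals for matches to the motifs searched.
DHRS9 (first of 4 annotated starts), chr2:169066827-169067076, plus strand: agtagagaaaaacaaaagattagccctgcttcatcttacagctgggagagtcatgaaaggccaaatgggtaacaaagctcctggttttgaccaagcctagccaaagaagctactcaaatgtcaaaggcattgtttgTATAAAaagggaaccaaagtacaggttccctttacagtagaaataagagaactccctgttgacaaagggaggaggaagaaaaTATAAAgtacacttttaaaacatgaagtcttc
CRABP2, chr1:156705785-156706034, minus strand: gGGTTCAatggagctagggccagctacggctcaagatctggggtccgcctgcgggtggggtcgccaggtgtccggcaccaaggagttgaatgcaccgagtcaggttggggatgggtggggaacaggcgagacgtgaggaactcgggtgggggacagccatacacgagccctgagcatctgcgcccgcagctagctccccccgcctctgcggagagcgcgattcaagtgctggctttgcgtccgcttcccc
ALDH1A3, chr15:100879581-100879830, plus strand: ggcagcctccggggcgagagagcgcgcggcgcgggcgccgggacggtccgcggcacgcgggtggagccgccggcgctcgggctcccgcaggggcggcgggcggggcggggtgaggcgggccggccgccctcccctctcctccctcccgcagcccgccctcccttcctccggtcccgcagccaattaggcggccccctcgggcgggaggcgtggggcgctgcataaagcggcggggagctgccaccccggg
CYP26B1, chr2:72147863-72148112, minus strand: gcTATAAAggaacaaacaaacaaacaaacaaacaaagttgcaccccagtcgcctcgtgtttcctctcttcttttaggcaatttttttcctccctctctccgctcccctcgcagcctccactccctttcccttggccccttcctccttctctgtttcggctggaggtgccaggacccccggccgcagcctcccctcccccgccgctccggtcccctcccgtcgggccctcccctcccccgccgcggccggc

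The sequences differed most in base composition. The DHRS9 stretch was 39.2% G and C and held 0 CG dinucleotides, while the ALDH1A3 stretch was 82.4% G and C with 38 CG dinucleotides. CRABP2 with 65.6% and CYP26B1 with 62.8% lay nearer to the median of 58% over all 35116 windows. The motifs searched on both strands, from 250 bases before to 50 after each start, were the receptor half-site in the form AGGTCA and in the variants spelled AGTTCA and, with a first G, spelled GGGTCA and also spelled GGTTCA, the AP-1 motif TGACTCA, which its reverse complement also matches, TATAAA, and direct repeats of the half-site with a spacer of 2 or 5 bases (DR2, DR5). The RefSeq table held 16 windows of 8 of these genes. A half-site lay in 38.6% of all windows and in 6 of the 16 (of CRABP2, DHRS3, DHRS9, RARA and RXRA), a share near that of all windows. TATAAA lay in 11.5% of all windows and in 4 of the 16 (of CYP26B1 and DHRS9). The AP-1 motif was found in 4.95% of all windows and in 2 of the 16 (of DHRS3 and DHRS9), at other starts than the one printed. The spaced repeats DR5 and DR2, held by 0.0883% and 0.0399% of all windows, were in 0 of the 16. In the printed DHRS9 stretch the matches began at positions -114 and -32 from the start, in CRABP2 at -249 and in CYP26B1 at -248. A match of letters is a description and marks no binding site.

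Library totals ran from 20349275 to 30788657 estimated counts. Levels below are CPM, counts scaled to a common library total after TMM scaling over the 12 libraries, as mean ± SD of 3 libraries, and log2 fold changes are given ± their standard error. Of 8 squamous epithelial markers, 8 were above 1 CPM in each group except JQ1-treated UPCI-SCC-090, where KRT14 was not; their summed level ran from 2441 to 2486 CPM in UM-SCC-47 with DMSO, 1777 to 2084 with JQ1, 5729.7 to 7690.5 in UPCI-SCC-090 with DMSO and 13127 to 19787 with JQ1. Of the fibroblast, leukocyte and endothelial markers at most 2 of a list were above 1 CPM in a group, and these lists summed to at most 29.2, 9.44 and 8.16 CPM in any library. In bulk RNA, fewer cells of a state and less RNA per cell cannot be told apart. The trend of expression with transcript GC content differed between libraries: it was steepest in UPCI-SCC-090 JQ1 replicate 3 (-0.73 log2 CPM per 10 percentage points of GC), UPCI-SCC-090 DMSO replicate 2 (0.66) and UM-SCC-47 JQ1 replicate 3 (-0.51).

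The short-chain dehydrogenases that turn retinol into retinal differed in UM-SCC-47 with JQ1: DHRS9 was close to 0 while RDH10 rose. DHRS9 (ENSG00000073737, GRCh37 chr2:169921299-169952677, plus strand) encodes a retinol dehydrogenase of epithelia that also acts on hydroxysteroids. Its level in UM-SCC-47 with DMSO was 9.73, 6.88 and 10.7 CPM, and with JQ1 it was 0.0743, 0.0562 and 0.0506 CPM. The groups did not overlap, and the treated libraries held 4 counts in all against 734 in the control libraries. The ratio of control to treated was 146, with a 95% counting interval of 56.9 to 538 that covers counting error only. In UPCI-SCC-090 DHRS9 was near zero in both conditions, with 0.133, 0.0438 and 0 CPM under DMSO, 5 counts in all, and 0 counts in the 3 JQ1 libraries, which allows up to 0.0404 CPM. DHRS9 did not pass the filter on low counts in UPCI-SCC-090, and a response there was not detectable at this depth.

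RDH10 (ENSG00000121039), the enzyme known as the main source of retinal in the embryo, was higher with JQ1 in both lines. In UM-SCC-47 it measured 84.6, 76.6 and 83.8 CPM with DMSO against 138, 152 and 134 CPM with JQ1. In UPCI-SCC-090 it measured 72.1, 51.9 and 61.3 CPM with DMSO against 201, 164 and 154 CPM with JQ1. In both lines every treated library lay above every control library. The log2 fold change was 0.78 ± 0.11 (edgeR's adjusted p = 0.0024) in UM-SCC-47 and 1.37 ± 0.25 (edgeR's adjusted p = 0.009) in UPCI-SCC-090, and the difference between the lines, 0.69 ± 0.26, did not pass the test (edgeR's adjusted p = 0.15). Without JQ1 replicate 1 of UPCI-SCC-090 the RDH10 call there was lost, at the same log2 fold change of 1.37 (edgeR's adjusted p = 0.056).

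DHRS3 (ENSG00000162496, GRCh37 chr1:12627939-12678216, minus strand) encodes the dehydrogenase that works in the opposite direction and returns retinal to retinol. In UM-SCC-47 its level was 169.8, 188 and 164 CPM with DMSO and 177, 206 and 143 CPM with JQ1, and the libraries overlapped. In UPCI-SCC-090 it was 63 ± 17.7 CPM under DMSO and 74.8 ± 26.8 CPM under JQ1, again with overlap. The log2 fold changes of 0.00 ± 0.16 and 0.12 ± 0.29 were not called (edgeR's adjusted p = 0.98 and 0.82), and the sign depended on the scaling, with 0.15 under RLE size factors and -0.26 under library size alone in UM-SCC-47. Between the lines DHRS3 did differ. With DMSO it was lower in UPCI-SCC-090 in every library, by a log2 fold change of -1.64 ± 0.22 (edgeR's adjusted p = 0.00063).

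**Figure D1:**
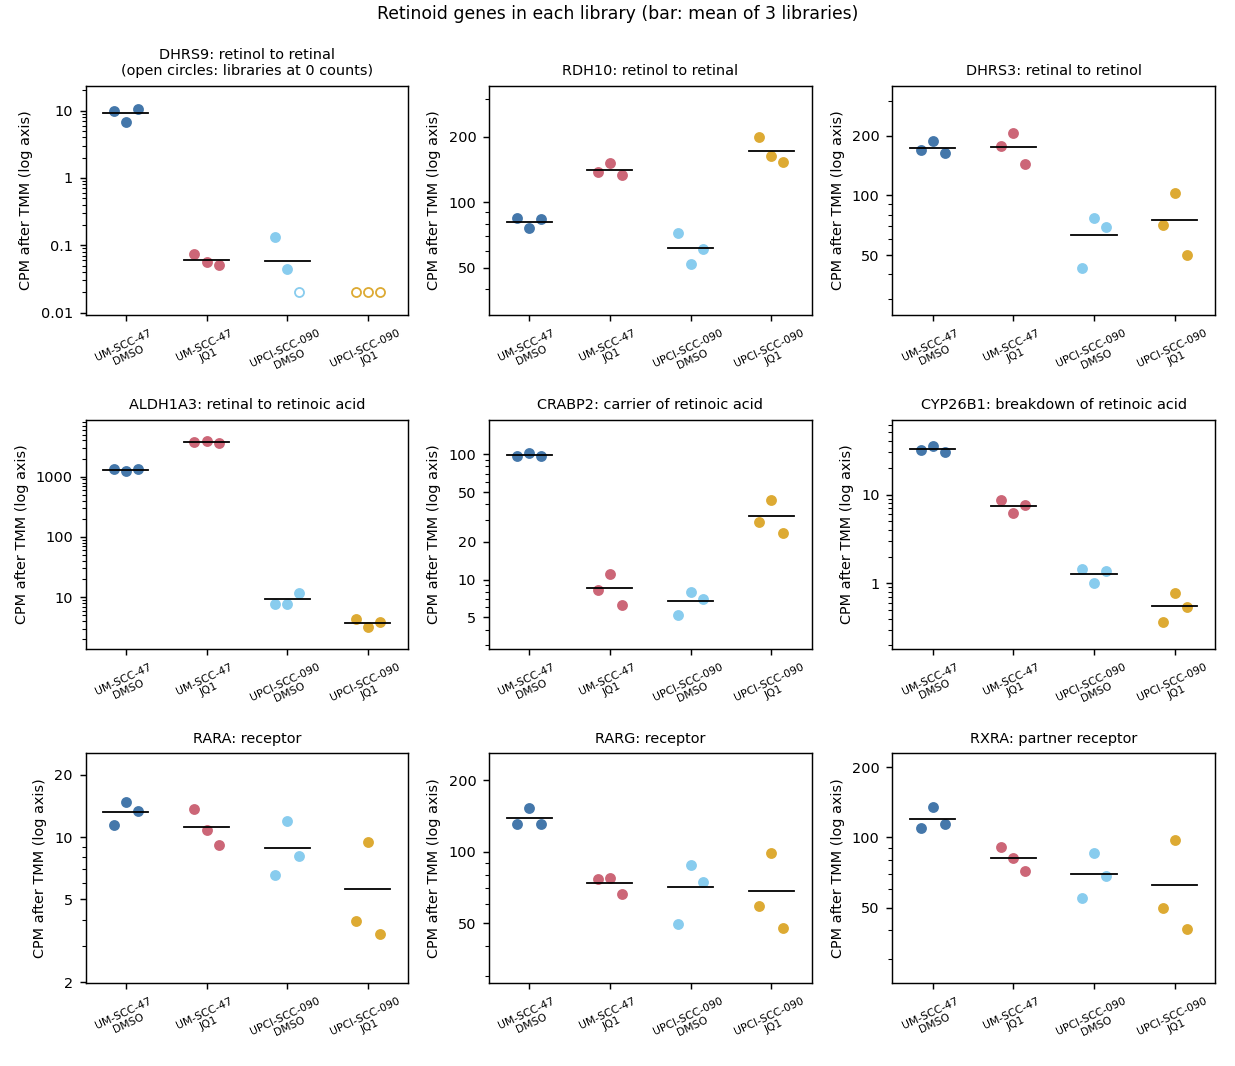
Level of each gene in each of the 12 libraries, in CPM after TMM scaling on log axes that differ between panels, with points for libraries, open circles for libraries at 0 counts and bars for the mean of 3 libraries in each group. DHRS9 was seen in UM-SCC-47 with DMSO and hardly elsewhere, ALDH1A3 parted the lines by more than any treatment did, and CRABP2 was lower with JQ1 in UM-SCC-47 and higher with JQ1 in UPCI-SCC-090.

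ALDH1A3, which makes retinoic acid from retinal, was the most abundant of the 9 genes in UM-SCC-47 and responded to JQ1 in opposite directions in the lines. The gene (ENSG00000184254, GRCh37 chr15:101417919-101456831, plus strand) measured 1322, 1263 and 1324 CPM in UM-SCC-47 with DMSO and 3775, 3889 and 3677 CPM with JQ1. In UPCI-SCC-090 it measured 7.82, 7.83 and 11.9 CPM with DMSO and 4.29, 3.15 and 3.91 CPM with JQ1. No library of a treated group overlapped its controls in either line. JQ1 raised it in UM-SCC-47 by a log2 fold change of 1.52 ± 0.12 (edgeR's adjusted p = 0.0003) and lowered it in UPCI-SCC-090 by -1.36 ± 0.34 (edgeR's adjusted p = 0.028). The difference of the responses, UPCI-SCC-090 minus UM-SCC-47, was -2.81 ± 0.28 (edgeR's adjusted p = 0.00031), and it passed in the 21 alternatives tried. The fall in UPCI-SCC-090 taken alone was lost in 10 of 16 alternatives, each single left-out library among them, with edgeR's adjusted p up to 0.14 without JQ1 replicate 1.

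CRABP2, the carrier that brings retinoic acid to the receptors, moved against ALDH1A3 in both lines. In UM-SCC-47 CRABP2 (ENSG00000143320, GRCh37 chr1:156669398-156675608, minus strand) measured 97.3, 102 and 97.6 CPM with DMSO and 8.29, 11 and 6.27 CPM with JQ1. In UPCI-SCC-090 it measured 5.19, 7.97 and 6.98 CPM with DMSO and 28.8, 43.5 and 23.6 CPM with JQ1. The libraries did not overlap in either line: treated libraries were the low ones in UM-SCC-47 and the high ones in UPCI-SCC-090. As log2 fold changes these were -3.56 ± 0.23 and 2.12 ± 0.31, and their difference was 5.79 ± 0.44, given without a test because CRABP2 was chosen on these values. The levels of the control UPCI-SCC-090 cells and of the treated UM-SCC-47 cells overlapped. The summed squamous markers were also higher with JQ1 in UPCI-SCC-090 (13127 to 19787 CPM against 5729.7 to 7690.5), with 3 of the 8 called higher, 0 lower and 5 not called; most of the sum was KRT6A, at 4556 ± 1116 CPM with DMSO and 11932 ± 3232 CPM with JQ1, while TP63 was at 615 ± 263 and 237 ± 150.0 CPM (not called). Their part in the CRABP2 difference was not tested.

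CYP26B1, an enzyme that hydroxylates retinoic acid for removal, was lower with JQ1. In UM-SCC-47 CYP26B1 (ENSG00000003137, GRCh37 chr2:72356367-72374991, minus strand) measured 31.5, 34.8 and 30.4 CPM with DMSO and 8.69, 6.18 and 7.53 CPM with JQ1. The groups lay apart, with a log2 fold change of -2.12 ± 0.18 (edgeR's adjusted p = 0.00043). In UPCI-SCC-090 the level was already low, 1.43, 1.01 and 1.36 CPM with DMSO and 0.364, 0.774 and 0.537 CPM with JQ1, and a log2 fold change of -1.31 ± 0.37 passed narrowly (edgeR's adjusted p = 0.04). That second call rested on 40 counts in the treated libraries and was lost in 13 of 16 alternatives, 5 of the 6 left-out libraries among them (all but JQ1 replicate 2), with adjusted p up to 0.28 in DESeq2. The responses of the lines were not shown to differ (difference 0.92 ± 0.43, edgeR's adjusted p = 0.27).

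The receptors were lower with JQ1 in UM-SCC-47 where they passed the test. RARG (ENSG00000172819, GRCh37 chr12:53604351-53626764, minus strand), the main retinoic acid receptor of epidermal keratinocytes, measured 131, 153 and 130.2 CPM with DMSO and 76.8, 77.2 and 66.6 CPM with JQ1 in that line. The libraries did not overlap and the log2 fold change was -0.92 ± 0.13 (edgeR's adjusted p = 0.002). RXRA (ENSG00000186350, GRCh37 chr9:137208944-137332431, plus strand), the partner receptor, measured 109.6, 135 and 114 CPM with DMSO and 90.7, 81.8 and 71.8 CPM with JQ1. Its log2 fold change of -0.57 ± 0.14 passed (edgeR's adjusted p = 0.02), but the call was lost in 8 of 16 alternatives, among them without each single control library and without JQ1 replicate 3 (-0.36, edgeR's adjusted p = 0.085). RARA (ENSG00000131759, GRCh37 chr17:38465432-38513895, plus strand), the broadly expressed receptor, was at 13.1 ± 1.63 CPM with DMSO and 11.2 ± 2.24 CPM with JQ1, with overlapping libraries and a log2 fold change of -0.24 ± 0.21 (edgeR's adjusted p = 0.39).

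In UPCI-SCC-090 none of the receptors RARA, RARG and RXRA passed the edgeR test, and their libraries overlapped. RARG was at 49.8, 88 and 74.3 CPM with DMSO and 58.8, 98.6 and 47.5 CPM with JQ1, a log2 fold change of -0.18 ± 0.30 (edgeR's adjusted p = 0.71). RXRA gave -0.30 ± 0.32 (edgeR's adjusted p = 0.56), and RARA gave -0.82 ± 0.43 (edgeR's adjusted p = 0.21), which became -1.24 and was called without JQ1 replicate 2 (edgeR's adjusted p = 0.05). The receptor transcripts are 60.2% to 61.9% G and C, and in both conditions of UPCI-SCC-090 replicate 2, the library with the highest GC trend of its group, was the highest for all of them. After a GC correction the log2 fold changes there were 0.25 for RARG, 0.15 for RXRA and -0.32 for RARA. With that correction the RARG response differed between the lines (1.13, edgeR's adjusted p = 0.0015), while without it the difference of 0.86 ± 0.40 did not pass (edgeR's adjusted p = 0.27).

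**Figure D2:**
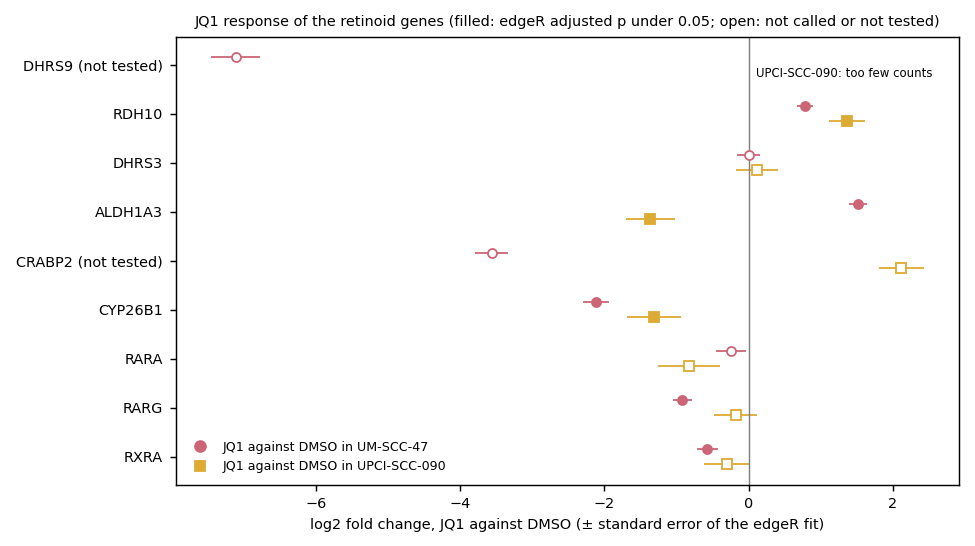
Log2 fold change of JQ1 against DMSO for each gene in UM-SCC-47 (circles) and UPCI-SCC-090 (squares), with the standard error of the edgeR fit. Filled symbols passed an adjusted p under 0.05; DHRS9 and CRABP2 were not tested, and ALDH1A3 and CRABP2 lay on opposite sides of 0 in the lines.

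Of the 7 tested genes, 3 were lower (CYP26B1, RARG and RXRA) and 2 were higher (ALDH1A3 and RDH10) with JQ1 in UM-SCC-47, where 25.5% of 13440 genes were called lower and 16.1% higher. In UPCI-SCC-090 2 of 7 were lower (ALDH1A3 and CYP26B1) and 1 was higher (RDH10), against 20.4% lower and 7.67% higher of 13150 genes. The difference of the responses was called for 1 of 7, ALDH1A3, against 3.63% of 14396 genes called with a lower and 2.93% with a higher response in UPCI-SCC-090. The median log2 fold change of all genes was -0.03 in UM-SCC-47 and -0.14 in UPCI-SCC-090. Scaling bore on these shares: among called genes 38.7% were higher in UM-SCC-47 under TMM, 48% under RLE size factors, 50.6% in DESeq2 and 24.1% under library size alone, and in UPCI-SCC-090 27.4%, 42.3%, 43.2% and 17.1%. The median of all genes moved with it, to 0.12 and 0.14 under RLE size factors and to -0.28 and -0.38 under library size alone.

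The lines differed in their retinoid genes before any JQ1, and UPCI-SCC-090 was the lower line for each gene that was called. With DMSO ALDH1A3 differed by a log2 fold change of -7.31 ± 0.26 (edgeR's adjusted p = 5.8e-06) and CYP26B1 by -4.82 ± 0.28 (edgeR's adjusted p = 1.4e-05). RARG was lower by -1.14 ± 0.21 and RXRA by -0.95 ± 0.19 (edgeR's adjusted p = 0.0035 and 0.0049). With DHRS3 this made 5 of 7 tested genes lower and 0 higher, where 25.3% of 14108 genes were called lower and 22.7% higher. RDH10 (-0.56 ± 0.20, edgeR's adjusted p = 0.052) and RARA (-0.74 ± 0.27, edgeR's adjusted p = 0.056) did not pass, although both did after the GC correction (edgeR's adjusted p = 0.029 and 0.00046). Single DMSO libraries of UPCI-SCC-090 decided 3 of these calls: RDH10 was called without replicate 1 (-0.51, edgeR's adjusted p = 0.021), RARA without replicate 2 (-0.96, edgeR's adjusted p = 0.0071), and RXRA was lost without replicate 3 (-0.80, edgeR's adjusted p = 0.076). The described genes lay on the same side: CRABP2 was 99 ± 2.66 CPM in UM-SCC-47 and 6.71 ± 1.41 CPM in UPCI-SCC-090, and the DHRS9 counts of 734 and 5 gave a ratio of 152 (95% counting interval 65 to 470.4). The DMSO libraries here are those of the JQ1 comparisons, so these values and the responses above share samples.

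Set per kilobase of transcript, so that genes can be ranked, ALDH1A3 led in UM-SCC-47 with DMSO at 376 ± 9.91 CPM per kb. CRABP2 followed at 102 ± 2.73, DHRS3 at 79.1 ± 5.67 and RARG at 47.3 ± 4.42 CPM per kb. RXRA and RDH10 could not be ordered beyond their spread, at 21.6 ± 2.41 and 20.6 ± 1.11 CPM per kb, and neither could CYP26B1 and DHRS9, at 7.08 ± 0.506 and 5.79 ± 1.27. RARA had the lowest mean at 4.01 ± 0.498 CPM per kb, with libraries that overlapped those of DHRS9. With JQ1 the order of that line became ALDH1A3 at 1089.7 ± 30.6, DHRS3 at 79.6 ± 14.2 and RDH10 at 35.7 ± 2.27 CPM per kb, with CRABP2 down at 8.73 ± 2.41.

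UPCI-SCC-090 had another order per kilobase. With DMSO, DHRS3 at 28.6 ± 8.04, RARG at 24.2 ± 6.63, RDH10 at 15.6 ± 2.56 and RXRA at 12.6 ± 2.79 CPM per kb stood at the top, and each of these lay within the spread of its neighbour in that order. ALDH1A3, first in the other line, was at 2.65 ± 0.676 CPM per kb, level with RARA at 2.72 ± 0.863. With JQ1 the leading genes were RDH10 at 43.6 ± 6.35, DHRS3 at 34 ± 12.2 and CRABP2 at 32.8 ± 10.6 CPM per kb, and the libraries of these 3 genes overlapped.

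**Figure D3:**
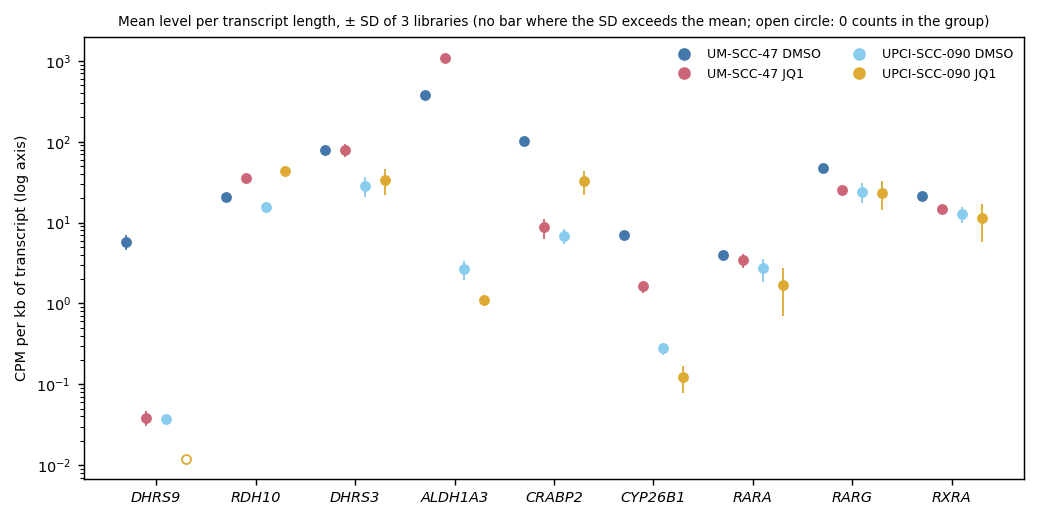
Mean level of each gene in the 4 groups in CPM per kilobase of transcript, on a log axis, ± SD of 3 libraries; no bar is drawn where the SD exceeds the mean, and the open circle marks a group with 0 counts. ALDH1A3 runs from 1089.7 in UM-SCC-47 with JQ1 to 1.09 in UPCI-SCC-090 with JQ1, while RARG runs from 47.3 to 23.4.

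The other enzymes of retinol and retinal, 20 genes of which 10 to 13 could be tested, did not move one way. In UM-SCC-47 JQ1 lowered 4 and raised 3 of 10, where 25.5% of all genes were called lower and 16.1% higher. The median log2 fold change of the 10 was 0.32 beside -0.03 for all genes. Some of the 10 passed the filter on low counts through the DMSO libraries alone and could only come out lower. The risen genes were RDH14 (12.1 ± 1.83 to 20.7 ± 4.32 CPM), the aldo-keto reductase AKR1C3 (4.74 ± 0.601 to 7.99 ± 1.7 CPM) and RDH13 (7.99 ± 0.0481 to 11.7 ± 0.901 CPM), calls lost in 7, 9 and 9 of 16 alternatives, at least 3 single left-out libraries among them for each gene. In UPCI-SCC-090 JQ1 lowered 2 of 12, and raised 0, with a median of -0.42 beside -0.14. Of all genes 20.4% were called lower there and 7.67% higher. Both lowered genes, ADH7 and AKR1C3, met the filter on low counts in every DMSO library but not in every treated library, so the count of lower genes is partly set by the filter. ADH7, the alcohol dehydrogenase of upper digestive epithelium, went from 27.3 ± 13.4 to 1.35 ± 1.22 CPM (-4.42 ± 0.92, edgeR's adjusted p = 0.015), a call lost without DMSO replicate 3 (edgeR's adjusted p = 0.05). AKR1C3 went from 6.68 ± 1.09 to 0.52 ± 0.275 CPM (-3.77 ± 0.47, edgeR's adjusted p = 0.0041). AKR1C3 thus rose in UM-SCC-47 and fell in UPCI-SCC-090, and the difference of -4.41 ± 0.50 passed (edgeR's adjusted p = 0.00056).

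In the comparison of DMSO cells 5 of 13 of these enzymes were higher and 4 lower in UPCI-SCC-090 (median 0.19). ADH7 and ALDH1A1 passed the filter on low counts through UPCI-SCC-090 alone and could only come out higher. Others met it in every library of UM-SCC-47 but not of UPCI-SCC-090. The counts of higher and lower genes in UPCI-SCC-090 are therefore partly set by the filter. Of all genes 22.7% were called higher there and 25.3% lower. ALDH1A2, a sister enzyme of ALDH1A3 with the same reaction, was at 0.628 ± 0.218 CPM in UM-SCC-47 and 32.9 ± 2.32 CPM in UPCI-SCC-090 (log2 fold change 5.54 ± 0.33, edgeR's adjusted p = 1.6e-05). Per kilobase ALDH1A2 reached 9.73 ± 0.686 CPM in UPCI-SCC-090 with DMSO, above the 2.65 ± 0.676 of ALDH1A3 there, so the more abundant of the pair was a different gene in each line. ADH7 had 2408 counts in UPCI-SCC-090 and 0 in UM-SCC-47, so it was at least 774-fold higher when the empty group is given 3 counts in all. SDR16C5, an epidermal retinol dehydrogenase, went from 0.651 ± 0.144 to 7.33 ± 1.93 CPM (edgeR's adjusted p = 0.00021), and DHRS4, a retinal reductase, from 23.8 ± 1.01 to 72.3 ± 16.8 CPM (edgeR's adjusted p = 0.00095). DHRS7 was lower in UPCI-SCC-090 (-0.55 ± 0.18, edgeR's adjusted p = 0.042), a call lost in 15 of 16 alternatives.

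Among 11 genes of retinyl esters, carotene cleavage and retinoic acid breakdown, JQ1 lowered 3 and raised 3 of 8 in UM-SCC-47 (median 0.22) and lowered 3 and raised 1 of 7 in UPCI-SCC-090 (median 0.40). In UM-SCC-47 BCO1 passed the filter on low counts through the DMSO libraries alone and could only come out lower. The shares of all genes called lower and higher were 25.5% and 16.1% in UM-SCC-47 and 20.4% and 7.67% in UPCI-SCC-090. DGAT1, an acyltransferase that can esterify retinol, rose in both lines. In UM-SCC-47 it went from 16.8 ± 0.705 to 86.8 ± 9.88 CPM (2.36 ± 0.14, edgeR's adjusted p = 0.00016). In the other line it went from 32.3 ± 9.15 to 106 ± 41.2 CPM (1.59 ± 0.31, edgeR's adjusted p = 0.011), a call lost without DMSO replicate 3 (edgeR's adjusted p = 0.053). LIPE, a hydrolase of retinyl and other esters, fell in UPCI-SCC-090 from 19.3 ± 5.53 to 4.79 ± 1.69 CPM (edgeR's adjusted p = 0.0064), a call lost without JQ1 replicate 1 (edgeR's adjusted p = 0.071). CYP2S1 fell there from 84.8 ± 24.4 to 38.1 ± 13 CPM (edgeR's adjusted p = 0.02), a call lost in 9 of 16 alternatives, among them without DMSO replicates 2 and 3 and JQ1 replicates 1 and 3. With DMSO 4 of 8 genes were higher and 2 lower in UPCI-SCC-090 (median 0.74), LIPE and CYP2S1 among the higher. Of all genes 22.7% were called higher there and 25.3% lower. CYP26A1, the sister enzyme of CYP26B1, is named after its values were seen: it was at 1.78 ± 0.152 and 4.68 ± 0.547 CPM in UM-SCC-47 with DMSO and JQ1, and at 3.67 ± 0.93 and 1.13 ± 0.174 CPM in UPCI-SCC-090. With JQ1 CYP26A1 gave log2 fold changes of 1.38 ± 0.19 in UM-SCC-47 and -1.81 ± 0.30 in the other line. Their difference was -3.09 ± 0.39, given without a test because CYP26A1 was chosen on these values.

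Of the 14 genes of retinoid transport and uptake, JQ1 lowered 2 and raised 1 of 8 in UM-SCC-47 (median -0.11), and in UPCI-SCC-090 lowered 5 of the 5 that could be tested (median -1.52 beside -0.14 for all genes). Some of these 5 passed the filter on low counts through the DMSO libraries alone and could only come out lower. The same held for some of the 8 in UM-SCC-47. The shares of all genes called lower and higher were 25.5% and 16.1% in UM-SCC-47 and 20.4% and 7.67% in UPCI-SCC-090. FABP5, a carrier that can take retinoic acid to other nuclear receptors than CRABP2, fell in both lines. In UM-SCC-47 it went from 46.8 ± 2.72 to 22.3 ± 4.4 CPM (edgeR's adjusted p = 0.0039). In the other line it went from 362 ± 68.1 to 142 ± 44 CPM (edgeR's adjusted p = 0.024), a call lost without DMSO replicates 1 and 3 and JQ1 replicate 1 (edgeR's adjusted p up to 0.088). RBP4, the plasma retinol carrier, rose in UM-SCC-47 from 6.32 ± 0.683 to 20.4 ± 7.4 CPM (edgeR's adjusted p = 0.0048). The scavenger receptor SCARB1 fell in UPCI-SCC-090 from 63.9 ± 19.3 to 24.5 ± 11.1 CPM (edgeR's adjusted p = 0.021). This call was lost in 9 of 16 alternatives, among them without DMSO replicates 2 and 3 and JQ1 replicates 1 and 3 (edgeR's adjusted p up to 0.2 over all alternatives).

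STRA6, the membrane receptor for retinol on its plasma carrier, was abundant in UM-SCC-47 alone of the lines. It was at 112 ± 10.1 CPM there with DMSO and 0.254 ± 0.204 CPM in UPCI-SCC-090, counts of 9095 and 23 whose ratio was 410.2 (95% counting interval 273 to 647). RBP4 had 511 and 3 counts, a ratio of 177 (60.1 to 859.6), and RBP7 was at 14.1 ± 0.982 and 3.75 ± 0.882 CPM (edgeR's adjusted p = 0.00039). FABP5 was instead higher in UPCI-SCC-090, by 2.79 ± 0.21 on the log2 scale (edgeR's adjusted p = 3.6e-05). In all 5 of 8 tested carriers were lower and 2 higher in that line (median -1.67), where 25.3% of all genes were called lower and 22.7% higher. STRA6 and RBP4 passed the filter on low counts through UM-SCC-47 alone and could only come out lower. The responses of RBP7 (difference -2.52 ± 0.52, edgeR's adjusted p = 0.015) and STRA6 (-3.90 ± 1.00, edgeR's adjusted p = 0.04) were called as different between lines; for STRA6 this rests on 23 and 1 counts in UPCI-SCC-090, and the call was lost in 9 of 21 alternatives, each of them a single left-out library. The RBP7 call was lost without DMSO replicate 1 of UM-SCC-47 (edgeR's adjusted p = 0.053).

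The acetyltransferases CREBBP and EP300, which act with the receptors, fell with JQ1 in both lines. Of the 16 other receptors and coregulators JQ1 lowered 3 and raised 1 of 13 in UM-SCC-47 (median -0.12) and lowered 4 and raised 0 of 15 in UPCI-SCC-090 (median -0.56). The shares of all genes called lower and higher were 25.5% and 16.1% in UM-SCC-47 and 20.4% and 7.67% in UPCI-SCC-090. CREBBP went from 56.4 ± 3.12 to 10.5 ± 3.56 CPM in UM-SCC-47 and in the other line from 136 ± 43.1 to 8.88 ± 3.39 CPM (edgeR's adjusted p = 0.0011 and 0.0037). EP300 went from 82.5 ± 10.7 to 26.3 ± 7.94 CPM in UM-SCC-47 and in the other line from 70 ± 22.6 to 9.33 ± 2.08 CPM (edgeR's adjusted p = 0.003 and 0.0043). The log2 fold changes of these genes kept their direction and their call in the 16 alternatives tried in each line.

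HDAC3, a deacetylase of the corepressor complexes, rose in UM-SCC-47 from 106 ± 5.83 to 161 ± 35.9 CPM (edgeR's adjusted p = 0.035), a call lost in 7 of 16 alternatives, each left-out control library among them. PRAME, a repressor of receptor signalling, fell in UPCI-SCC-090 from 56.4 ± 9.62 to 23.4 ± 4.6 CPM (edgeR's adjusted p = 0.0079; lost in 6 of 16 alternatives, among them without JQ1 replicates 1 and 3), and was nearly absent from UM-SCC-47 with DMSO, with 6 counts against 4674. With DMSO 5 of 15 genes of the list were higher in UPCI-SCC-090 and 0 lower (median 0.35), TRIM24 and CREBBP among them. PRAME and RARB passed the filter on low counts through UPCI-SCC-090 alone and could only come out higher, so these counts are partly set by the filter. Of all genes 22.7% were called higher there and 25.3% lower. The TRIM24 call was lost without any single UM-SCC-47 library (edgeR's adjusted p up to 0.12). The difference of the responses was called for 0 of 15, where 3.63% of all genes were called lower and 2.93% higher. RARB, the retinoic acid receptor that is itself known to be induced by the acid, stood at 0.134 ± 0.0507 CPM in UM-SCC-47 and 2.47 ± 0.797 CPM in UPCI-SCC-090 with DMSO. RARB was named after its values were seen, so they are given without a test.

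The 16 genes known to respond to retinoic acid were mostly lower in UPCI-SCC-090 with DMSO and went both ways with JQ1. With DMSO 10 of 15 tested were lower in UPCI-SCC-090 and 3 higher, where 25.3% of all genes were called lower and 22.7% higher. The median log2 fold change of the 15 was -2.13 beside -0.01 for all genes. Some of the 15, PLAAT4 and STRA6 among them, passed the filter on low counts through UM-SCC-47 alone and could only come out lower. RARB passed it through UPCI-SCC-090 alone. The counts and the median are therefore partly set by the filter. PLAAT4 had 3224 counts in UM-SCC-47 and 3 in UPCI-SCC-090, a ratio of 1115 (95% counting interval 381 to 5408). RARRES1, a retinoid-induced membrane protein, was at 134 ± 11.6 and 1.42 ± 0.299 CPM (-6.70 ± 0.26, edgeR's adjusted p = 5.8e-06). GPRC5A, a membrane receptor induced by retinoic acid, was at 1269 ± 58.4 and 48.3 ± 9.79 CPM (-4.89 ± 0.20, edgeR's adjusted p = 5.8e-06). STRA6, given above with the carriers, belongs to this list too.

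With JQ1 in UM-SCC-47 6 of 14 responsive genes fell and 4 rose (median -0.05), where 25.5% of all genes were called lower and 16.1% higher. Some of the 14 passed the filter on low counts through the DMSO libraries alone and could only come out lower. HOXA4 did not meet it in every treated library. The count of fallen genes is therefore partly set by the filter. RARRES1 fell from 134 ± 11.6 to 11 ± 1.82 CPM (-3.62 ± 0.18, edgeR's adjusted p = 0.00013) and PLAAT4 from 39.5 ± 4.24 to 5.4 ± 2.27 CPM (-2.89 ± 0.33, edgeR's adjusted p = 0.0011). HOXA4 fell from 5.79 ± 0.122 to 0.569 ± 0.144 CPM (edgeR's adjusted p = 0.00024). GPRC5A rose from 1269 ± 58.4 to 3405 ± 487 CPM (1.41 ± 0.15, edgeR's adjusted p = 0.00085), the same direction as ALDH1A3. In UPCI-SCC-090 4 of 10 fell and 0 rose (median -0.34), where 20.4% of all genes were called lower and 7.67% higher. RARRES1 met the filter in every DMSO library of UPCI-SCC-090 but not in every treated library. GPRC5A did not pass there (-0.37 ± 0.25, edgeR's adjusted p = 0.33). Its responses differed between the lines by -1.67 ± 0.32 (edgeR's adjusted p = 0.0099), a call lost in 1 of 21 alternatives, without the steepest GC libraries (edgeR's adjusted p = 0.05).

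**Figure D4:**
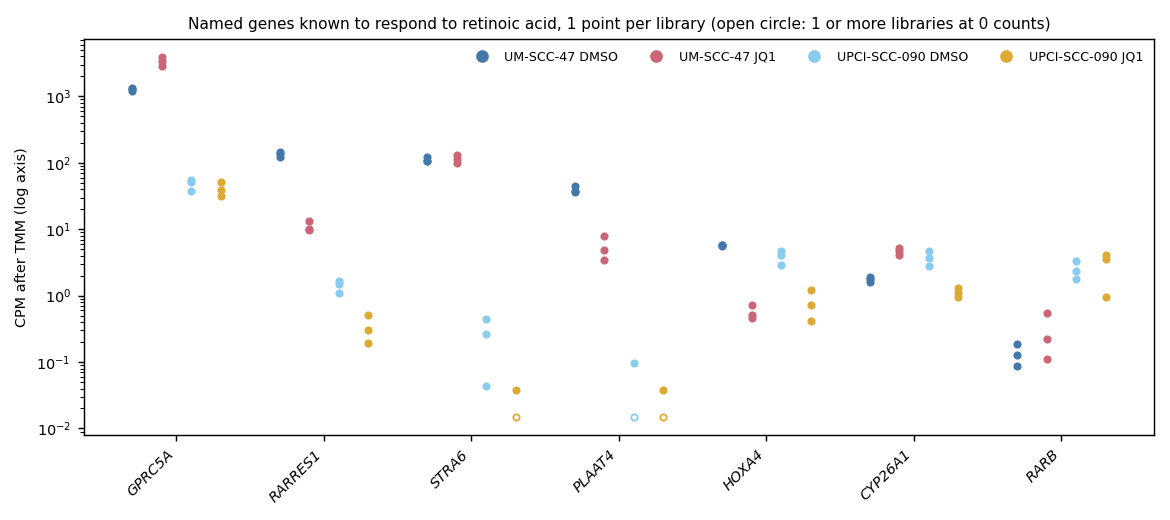
Level of the 7 named genes known to respond to retinoic acid, in CPM after TMM scaling on a log axis, with 1 point for each library of the 4 groups and an open circle where 1 or more libraries of a group were at 0 counts. PLAAT4, RARRES1, STRA6 and GPRC5A lay lower in UPCI-SCC-090, and RARRES1 and PLAAT4 were lower with JQ1 in UM-SCC-47.

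Of the 13 nuclear receptors that pair with RXR, JQ1 lowered 5 and raised 0 of 10 in UM-SCC-47 (median -0.62 beside -0.03) and lowered 3 and raised 0 of 11 in UPCI-SCC-090 (median -0.49 beside -0.14). Of all genes 25.5% were called lower and 16.1% higher in the first comparison and 20.4% and 7.67% in the second, and the share of 3 of 11 lay near its background. In the second, NR1I3 passed the filter on low counts through the DMSO libraries alone and could only come out lower. PPARD fell in UM-SCC-47 from 52.4 ± 5.82 to 17.3 ± 3.04 CPM (edgeR's adjusted p = 0.00095) and the thyroid hormone receptor THRA from 24.5 ± 1.86 to 8.77 ± 0.697 CPM (edgeR's adjusted p = 0.00078). PPARG, the lipid receptor, fell in both lines, from 102 ± 3.29 to 63.9 ± 9.19 CPM in UM-SCC-47 (edgeR's adjusted p = 0.0091) and in the other line from 52.1 ± 2.91 to 23.2 ± 3.47 CPM (edgeR's adjusted p = 0.015). The first PPARG call was lost in 3 of 16 alternatives, without JQ1 replicate 3 among them, and the second in 7 of 16, among them without DMSO replicates 2 and 3 and JQ1 replicates 1 and 3 (edgeR's adjusted p up to 0.12). With DMSO 6 of 11 were lower and 3 higher in UPCI-SCC-090 (median -0.77), where 25.3% of all genes were called lower and 22.7% higher. THRB was among the lower genes, at 21.2 ± 4.57 and 5.57 ± 3.05 CPM in UM-SCC-47 and UPCI-SCC-090 (edgeR's adjusted p = 0.008), and NR4A1 among the higher, at 2.47 ± 0.342 and 6.47 ± 1.92 CPM (edgeR's adjusted p = 0.009), a call lost without DMSO replicate 1 of UM-SCC-47 (edgeR's adjusted p = 0.056).

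The genes with profiles most like those of DHRS9 and CRABP2 were sought over the 12 libraries by the root mean square difference of centred log2 CPM, among 11648 genes. For DHRS9 the closest was LINC01559, a long non-coding RNA, with a difference of 0.42 where the median of all genes was 2.91; its levels were 22 ± 3.6 CPM in UM-SCC-47 with DMSO and 0.274, 0.216 and 0.0404 CPM in the other groups. FOXJ1 (0.58), ENSG00000161570 (0.59), MYPN (0.61) and the hyaluronan synthase HAS2 (0.63) came next. For CRABP2 the closest was the membrane protein gene MALL, with a difference of 0.38 where the median was 1.83. MALL was at 294 ± 14.1 and 21.9 ± 4.49 CPM in UM-SCC-47 with DMSO and JQ1 and at 11 ± 2.09 and 53.4 ± 16.5 CPM in UPCI-SCC-090. SAMD11 (0.48), the water and glycerol channel AQP3 (0.72), PRR15L (0.78) and the keratinocyte transglutaminase TGM1 (0.80) followed. These likenesses describe 12 libraries that share 4 groups, and many genes follow the groups.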

How the data were processed

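RNA of 12 cell line libraries was sequenced by the authors with a stranded total RNA kit. The authors deposited expected counts per gene, estimated with Salmon 0.8.2 per the submitters' processing notes, which also name DESeq2 1.28.0; for the genome build of the estimates: not given in the sources used here. Of the values 42.7% were whole, and all were rounded to whole counts here. Symbols, positions and transcript lengths came from the GRCh37 annotation, which held 20015 of the 20738 gene IDs and not the other 723; RefSeq promoter windows were in GRCh38.p14. Levels were CPM after TMM scaling, with scaling factors from 0.821 to 1.21.

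Comparisons were fitted on the whole table with the quasi-likelihood F test of edgeR 4.0.16 in R 4.3.3, after a filter on low counts (minimum count 10, minimum total 15), with Benjamini-Hochberg adjustment over all genes tested and a threshold of 0.05. JQ1 was compared with DMSO within each line, the responses were compared between lines by an interaction term over the 12 libraries, and the lines were compared with DMSO. Counting intervals are exact binomial at 95%, and a count of 0 was given a floor of 3 counts over the group; both cover counting error only.

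The genes, the 6 wider lists and the alternatives were chosen with earlier results of these data known. Named beyond the 9 genes were, for each list, comparison and direction, up to 4 called genes whose higher group reached at least 5 CPM on average and, except in the interaction, no overlap between libraries, by size of the log2 fold change, and the 5 nearest profiles of DHRS9 and of CRABP2. Alternatives were size factors (RLE), upper-quartile factors, library size alone, no filter, DESeq2 1.42.0, a replicate block, a GC correction by a smooth trend on transcript GC content, that correction with the block, the 3 libraries of steepest GC trend left out, 1 fit over the 12 libraries and each library left out. The fits were first tested on simulated counts. Some listed genes are counted but not reported here by name.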

Additional observations from a re-analysis of the deposited data

Results flagged for a closer look

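ALDH1A3 responded differently to JQ1 in the lines by the test of the difference itself, at -2.81 ± 0.28 on the log2 scale (UPCI-SCC-090 minus UM-SCC-47; edgeR's adjusted p = 0.00031), higher in 3 of 3 treated libraries of UM-SCC-47 and lower in 3 of 3 of UPCI-SCC-090. CRABP2 moved the opposite way in each line, lower in 3 of 3 treated libraries of UM-SCC-47 and higher in 3 of 3 of UPCI-SCC-090, with a difference of 5.79 that was not tested.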

How the results depend on the processing

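None of the 7 tested genes reversed a call in the alternatives run. Of the values of the 7 tested genes under the alternatives, 104 of 112 kept their side of the threshold in UM-SCC-47, 87 of 112 in UPCI-SCC-090, 145 of 147 for the difference of the responses and 103 of 112 between the DMSO cells. The count of genes lower with JQ1 in UPCI-SCC-090 was 2 as reported, 0 with RLE size factors, with no filter, in DESeq2 and without the steepest GC libraries, 1 with upper-quartile factors, the GC correction and the GC correction with the block, and 0 to 2 with single libraries left out. The count of higher genes there ran from 0 to 1 with single libraries left out. The count of genes with a higher response in UPCI-SCC-090, 0 as reported, was 1 (RARG) with the GC correction, with or without the block.

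Same-numbered replicates did not deviate together throughout (correlations of -0.15 to 0.43 in UM-SCC-47, 0.10 to 0.79 in UPCI-SCC-090 and -0.07 to 0.31 between the DMSO cells), so the numbers were not taken as pairs; with a replicate block 1 of these genes was lower in UPCI-SCC-090, and the other counts of these genes were unchanged. The cause of these changes was not tested. In UPCI-SCC-090 the treated libraries held 40 counts of CYP26B1 and 0 of DHRS9 in all.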
